A study of Homo sapiens with 6 samples.

Results

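Macroautophagy is the route by which a cell wraps part of its own cytoplasm in membrane and delivers it to the lysosome for digestion. The ULK1 kinase complex starts the process, a lipid kinase complex built around PIK3C3 and BECN1 marks the growing membrane, and a conjugation system attaches small ATG8 proteins (the LC3 and GABARAP families) to that membrane, where they hold cargo receptors. Flux through the route is set to a large extent by phosphorylation and lipidation of proteins that are already present, so transcript levels describe the supply of parts and not the activity. In leukaemia cells autophagy is studied as a means of surviving nutrient and drug stress.

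The genes described here are 35 named components of this machinery: 5 of the initiation complex, 6 of the lipid kinase complex, 6 of membrane supply, 10 of conjugation and ATG4 processing, 4 ATG8 proteins and 4 receptors. They were chosen by name, with earlier results of these data known. Of the 24878 genes in the deposited table, 34 were members. ULK2 had no row and was not analysed here. The low-count filter left 14601 genes, 33 of them members. GABARAP was the member that did not pass. Each of the 33 had a mean of at least 5 CPM (TMM-scaled counts per 1e6 counts) and at least 89 counts in every library, so none of them passed through a single group.

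The RNA came from MOLM-13, a human line from acute myeloid leukaemia of the M5 (monocytic) type, and 6 libraries of poly-A selected RNA were sequenced. The 2 control libraries came from cells labelled control, described as carrying a control vector, without doxycycline (dox). The CaMK2D-KO libraries came from cells with a dox-inducible knockout vector for the calcium/calmodulin-dependent kinase CaMK2D, 2 after 3 days of dox and 2 after 5 days. Both KO groups differ from the controls in vector and dox at once, and no group of control vector cells with dox, or KO vector cells without it, was analysed here. Whether the KO cells are 1 clone, and whether libraries of a group are separate cultures, is not stated, so p-values reflect only how far these libraries differ from each other, which may be technical.

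Total counts were 15456770 to 21081298 per library, and a count of 0 allows up to 0.194 CPM (3 counts) in the shallowest library, which covers counting error only. CAMK2D was at 23 and 14.48 CPM in control cells, 14.7 and 15.61 on day 3 and 28.98 and 28.13 on day 5. Its RNA therefore did not mark the KO libraries. The log2 fold change was -0.30 on day 3 (edgeR adjusted p = 0.437) and 0.61 on day 5 (edgeR adjusted p = 0.118, and 0.0317 without control replicate 1, where the value was 0.97). How the knockout is made is not stated, the edit itself was not measured, and KO is used here as the label. Myeloid markers were present in every library (CD33 at 47.49 to 55.85 CPM), although the monocyte marker CD14 was at 2.972 CPM or less. Of markers of other cells, CD3D, CD3E, CD2, MS4A1, HBA1, HBB, EPCAM and COL1A2 had no row, COL1A1 and CD79A were at 1.927 CPM or less, and KRT8 and KRT18 were at 4.794 to 28.4 CPM. Some myeloid markers differed with the groups, and most of those that did were lower in the KO libraries. SPI1, ITGAM and CD4 were lower at both days (edgeR adjusted p from 0.00964 to 0.0487). CSF1R was at 30.9 and 40.99 CPM in control cells and at 1.355 to 6.816 in the KO libraries (edgeR adjusted p = 0.0926 and 0.0733). MPO was at 662.1 and 1220 CPM in control cells and at 6.848 to 27.7 in the KO libraries, and FLT3 was at 875.5 and 1063 against 241 to 340.8. CEBPA had the other sign on day 5, at 315.1 and 342.6 CPM in control cells and 448.3 and 469.4 on day 5 (edgeR adjusted p = 0.0287), and PTPRC overlapped between the groups against control (162.7 to 292.5 CPM over the 6 libraries). LYZ was at 139.3 and 391.6 CPM in control cells, 33.62 and 178.2 on day 3 and 18.96 and 228.9 on day 5. It was higher in replicate 2 of each group. Mitochondrial transcripts made up 2.52% and 3.05% of counts in control cells and 0.868% to 1.14% in the KO libraries. The part of these differences in the results below was not tested. In bulk RNA, fewer cells of a type and less RNA per cell cannot be told apart.

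In the reported fit, which had no term for replicate number, few members of the machinery changed at the adjusted threshold. Those that did moved in both directions. By edgeR's quasi-likelihood test with Benjamini-Hochberg adjustment over all 14601 genes (threshold 0.05), 1 of 33 members passed on day 3 against control, GABARAPL2, which fell. That is 3.03% of the members, where 11.7% of all genes passed (5.72% higher and 5.99% lower). On day 5 against the same controls 4 of 33 passed, 12.1%, where 14.5% of all genes passed (7.44% higher and 7.05% lower). GABARAPL1 and RB1CC1 rose, and GABARAPL2 and AMBRA1 fell. With a term for replicate number (a replicate block) 9 of 33 members passed on day 3 and 16 on day 5. Of 14601 genes 4064 and 4418 did so in that fit. Between day 5 and day 3 no member passed in the reported fit or in DESeq2. Of all genes 0.0274%, 4 in number, passed in the reported fit. A replicate block gave 4 members between the days, and the fit without a filter gave 1. Before adjustment, edgeR gave p under 0.05 for 11 of 33 members on day 3, 16 on day 5 and 8 between the days. Of all 14601 genes 4223, 4504 and 2206 were under it.

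The members had small changes in both directions. Their median log2 fold change was -0.05 on day 3 and -0.06 on day 5, and over all genes it was 0.00 and 0.015. The median size of the change regardless of sign was 0.30 on day 3 and 0.35 on day 5, against 0.39 and 0.41 over all genes tested, and against 0.32 and 0.33 over the 10190 genes at a mean of 5 CPM or more. GABARAPL1 on day 5 was the only member past a 2-fold change in either comparison. Both KO libraries lay above both controls for 11 members and below them for 12 at each day, where 30.3% (above) and 30.1% (below) of all genes did so on day 3 and 29.6% and 28.4% on day 5. The 2 comparisons share their control libraries.

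**Figure D1:**
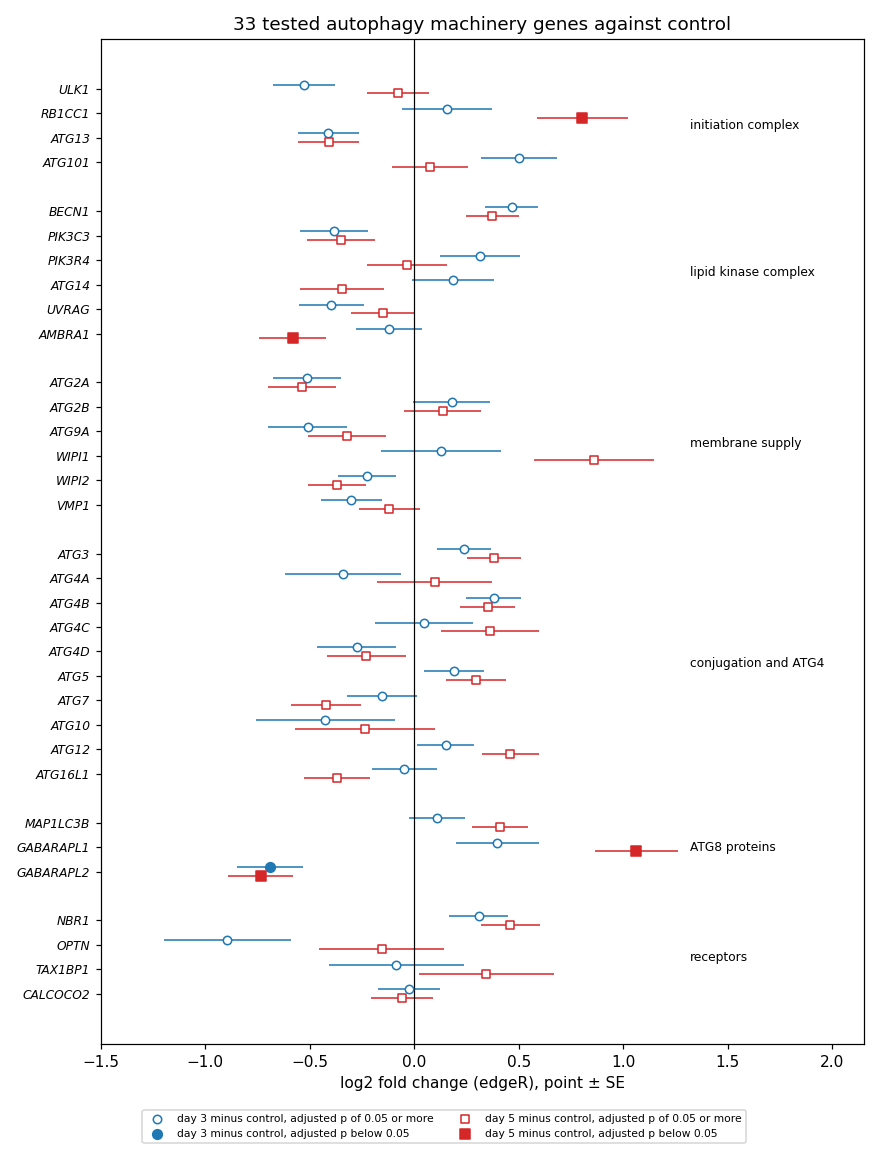
Log2 fold change (edgeR, horizontal axis, bars of 1 standard error) of the 33 tested members on day 3 and on day 5 against the same 2 control libraries, grouped by role. Points lie between -0.90 and 1.06, and the filled points are those past an adjusted p of 0.05: GABARAPL2 on day 3, and GABARAPL1, RB1CC1, GABARAPL2 and AMBRA1 on day 5.

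Levels of different genes can be compared only per length, for which the deposited FPKM values (fragments per kilobase of exon and per 1e6 counts) were used. In control cells the members' mean FPKM ran from 1.249 to 17.6 with a median of 6.303, above the median of 3.848 over all tested genes. ATG13, ULK1, GABARAPL2, WIPI2 and CALCOCO2 were near the top and ATG2B, ATG10 and WIPI1 at the bottom. Summed over all members, FPKM was 249.6 and 231.4 in control cells, 218.2 and 219.1 on day 3 and 244.7 and 247.4 on day 5. The day 3 libraries were the lowest of the 6 in this sum, and the day 5 libraries lay inside the range of the controls.

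**Figure D2:**
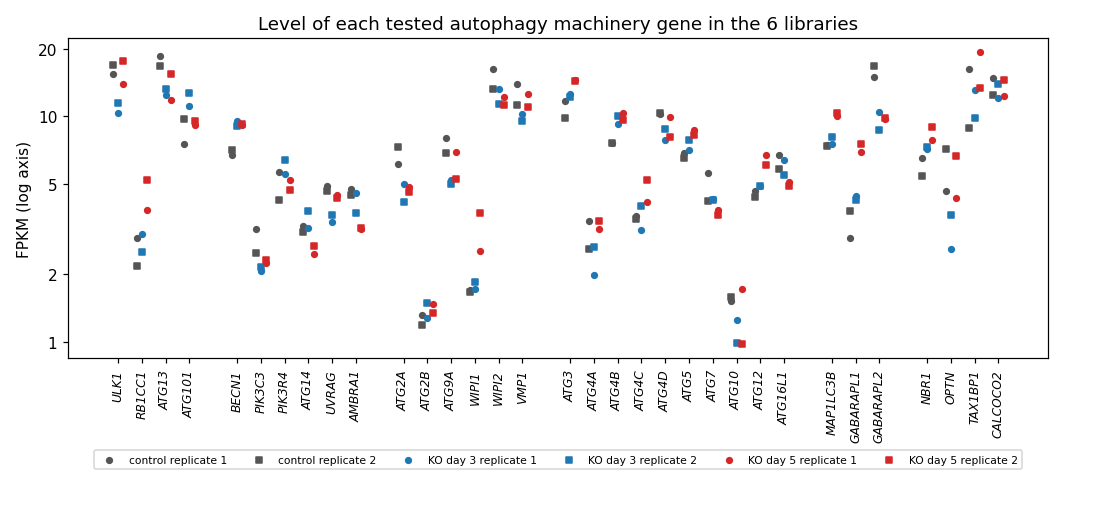
Deposited FPKM of each of the 33 tested members (vertical axis, log scale), 1 point per library, with colour for the group and shape for the replicate, ordered by role. Levels run from below 1 FPKM (ATG10) to above 15 (ATG13, ULK1), and points of 1 gene mostly lie closer together than the genes do; GABARAP, at 0.1133 FPKM or less in every library, was not tested and is not drawn.

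The ATG8 proteins are the small ubiquitin-like tags that ATG4 trims and that are bound to lipid on the autophagosome membrane. Of the 3 tested, 2 passed the threshold on day 5, in opposite directions. GABARAPL1 (ENSG00000139112; GRCh38 chromosome 12, 10212458 to 10223130, plus strand) was at 11.76 and 15.77 CPM in control cells, 18.3 and 18.03 on day 3 and 27.96 and 29.66 on day 5. The groups did not overlap, with the controls lowest and day 5 highest. Its log2 fold change was 0.40 ± 0.20 (SE) on day 3 (edgeR adjusted p = 0.226) and 1.06 ± 0.20 on day 5 (edgeR adjusted p = 0.0134). Without day 5 replicate 2 the adjusted p on day 5 was 0.0618, and it was under 0.05 in the other 16 alternatives. An antisense gene, AC115676.1, shares 8.05% of its exonic bases, and the counting is not stated to use strand.

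GABARAPL2 (ENSG00000034713; chromosome 16, 75566351 to 75577881, plus strand), the GABARAP paralogue also known as GATE-16, moved the other way. It was at 45.23 and 51.06 CPM in control cells, 32.21 and 27.43 on day 3 and 28.98 and 28.84 on day 5. Every KO library lay below both controls, and the 2 KO groups overlapped each other. The log2 fold change was -0.69 ± 0.16 on day 3 (edgeR adjusted p = 0.0295) and -0.74 ± 0.16 on day 5 (edgeR adjusted p = 0.021). None of its exonic bases lie in exons of another gene. Its day 3 call was lost without control replicate 2 (0.0784) or either day 3 library (0.111 and 0.244), and its day 5 call without control replicate 2 (0.0512) or either day 5 library (0.0813 and 0.0969), by the same adjusted test in edgeR. The direction held in each of these.

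**Figure D3:**
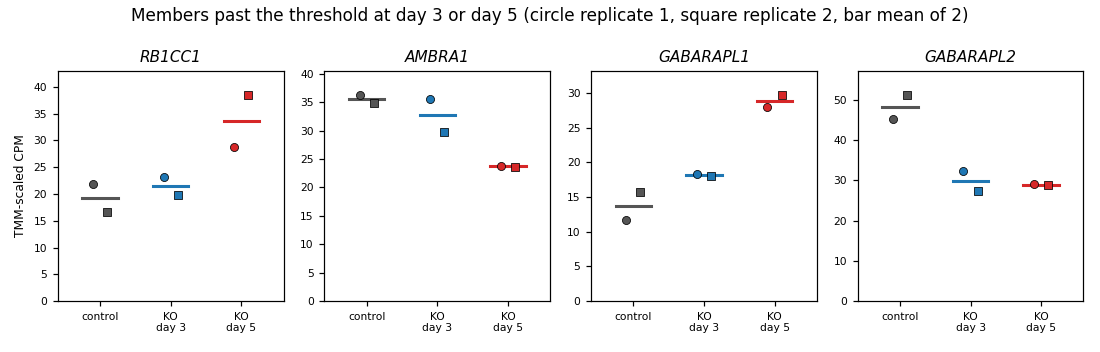
TMM-scaled CPM (vertical axis, from 0) of the members past an adjusted p of 0.05 in at least 1 comparison, 1 point per library, with a bar at each group mean. GABARAPL1 rises from 11.76 and 15.77 CPM in control cells to 27.96 and 29.66 on day 5, and GABARAPL2 lies at 45.23 and 51.06 CPM in control cells and at 32.21 or less in every KO library.

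MAP1LC3B, which encodes the LC3 protein most used as a marker of autophagosomes, was at 39.51 and 39.84 CPM in control cells, 40.82 and 44.8 on day 3 and 52.46 and 52.88 on day 5. Both day 5 libraries lay above all 4 others, but the change of 0.41 ± 0.13 did not pass (edgeR adjusted p = 0.0797). MAP1LC3B passed on day 5 with a replicate block. Of its 31-base words, 5.92% are shared with the near copy MAP1LC3B2. GABARAP itself had 1 and 4 counts in control cells, 5 and 1 on day 3 and 0 and 1 on day 5, far below its 3 relatives. Exons of other genes cover 55.7% of its exonic bases, 30.5% by AC120057.2 on the same strand. AC120057.3, on the opposite strand, covers 25.2% and had 0 to 6 counts per library. Among 464 protein-coding genes with 50% to under 95% of exonic bases shared the median total count over the 6 libraries was 46.5, and 28.2% had at most 5 counts in every library. Among 7769 genes with no shared base these values were 1984 and 14.04%. How shared reads were counted is not given in the sources used here, and its part in the GABARAP row was not tested, so these counts are not read as the level of GABARAP RNA.

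The make-up of the measured ATG8 transcripts shifted while their sum changed less. GABARAPL1, GABARAPL2 and MAP1LC3B together were at 25.4 and 27.89 FPKM in control cells, 22.44 and 21.04 on day 3 and 26.66 and 27.73 on day 5. The share of GABARAPL2 in that sum was 59.1% and 59.7% in control cells, 46.6% and 41.3% on day 3 and 36.4% and 35.6% on day 5. The share of GABARAPL1 was 11.4% and 13.7%, then 19.7% and 20.2%, then 26.05% and 27.2%. MAP1LC3B made up 29.5% and 26.6%, then 33.7% and 38.5%, then 37.6% and 37.2%. GABARAPL2 had the highest FPKM of the 3 in both control and both day 3 libraries. In the day 5 libraries MAP1LC3B (10.02 and 10.33 FPKM) lay close above GABARAPL2 (9.692 and 9.867). FPKM here rests on summed exons, 5313 bases for MAP1LC3B and 3034 for GABARAPL2. The forms of RNA present were not measured, so the close order on day 5 is not read as a rank. The ratio of GABARAPL1 to GABARAPL2 was 0.193 and 0.229 in control cells, 0.422 and 0.488 on day 3 and 0.716 and 0.764 on day 5, with no overlap between groups. These shares were computed after the changes of the same genes were known and carry no test. GABARAP, the fourth ATG8 gene here, is not in the sum.

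**Figure D4:**
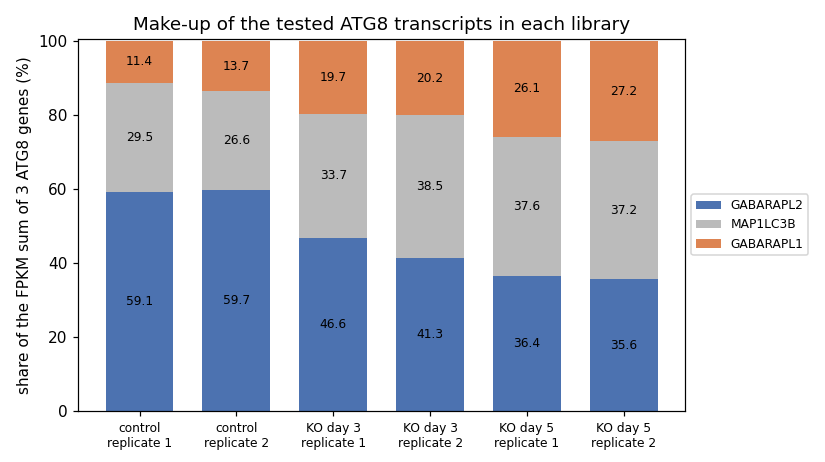
Share of GABARAPL1, GABARAPL2 and MAP1LC3B in their summed FPKM (vertical axis, percent), 1 stacked bar per library. GABARAPL2 goes from 59.1% and 59.7% in control cells to 36.4% and 35.6% on day 5, and GABARAPL1 from 11.4% and 13.7% to 26.05% and 27.2%.

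Because GABARAPL1 and GABARAPL2 moved in opposite directions, stretches before their RefSeq starts are shown, taken from RefSeq on GRCh38.p14 and written 5′ to 3′. RefSeq promoter windows (250 bases before to 50 after a start) were found for 31 of the 35 members, 37 windows in all. Capitals mark TGACGTCA, the full cyclic-AMP response element. It was added to the search after the GABARAPL1 stretch had been seen. The GABARAPL1 stretch, chr12:10212837-10212866 on the plus strand, has it 30 bases before the RefSeq start. The GENCODE gene begins before this stretch, at 10212458. The longer GABARAPL2 stretch, chr16:75566129-75566378 on the plus strand, has none.
GABARAPL1: gctcgcggggTGACGTCAcagcccgacgcg
GABARAPL2: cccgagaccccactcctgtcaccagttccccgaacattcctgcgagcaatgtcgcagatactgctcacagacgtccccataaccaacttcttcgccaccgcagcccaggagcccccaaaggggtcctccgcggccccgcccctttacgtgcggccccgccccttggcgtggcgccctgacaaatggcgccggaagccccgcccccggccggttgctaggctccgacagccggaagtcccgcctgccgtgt

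TGACGTCA, searched on both strands, was in 1 of the 37 member windows (2.70%), in 2.70% of the 14512 windows of tested genes and in 1.85% of all 35116 windows. Autophagy and lysosome genes are known as targets of TFEB and its relatives, which bind E-box sequences, so CACGTG and its extended form TCACGTGA, which contains CACGTG, were searched too. CACGTG was in 2 of 37 member windows (5.41%) against 9.40% of windows of tested genes and 7.26% of all windows, and TCACGTGA in 1 (2.70%) against 1.66% and 0.98%. TGATGCAA, a form of the element bound by ATF4 with a C/EBP partner, was in 0 of 37 against 0.517% and 0.866%. The 2 windows with CACGTG belong to ATG3, with the letters 18 bases before the start and again within TCACGTGA after it, and ATG14, 21 bases before. Both stretches are given with the 2 motifs in capitals: ATG3 from chr3:112561943-112562002 and ATG14 from chr14:55411831-55411910, both on the minus strand. A match is a description of the letters, and neither gene passed in the reported fit in any of the 3 comparisons.
ATG3: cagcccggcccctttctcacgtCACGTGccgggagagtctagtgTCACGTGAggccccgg
ATG14: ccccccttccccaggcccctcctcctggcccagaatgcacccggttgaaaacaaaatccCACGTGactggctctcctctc

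The initiation complex receives the nutrient signal: ULK1 is its kinase, RB1CC1 (FIP200) its scaffold, and ATG13 and ATG101 its regulatory partners. RB1CC1 rose on day 5, and the other 3 tested members did not pass. RB1CC1 (ENSG00000023287; chromosome 8, 52622456 to 52745843, minus strand) was at 21.91 and 16.68 CPM in control cells, 23.14 and 19.79 on day 3 and 28.86 and 38.4 on day 5. The day 3 libraries overlapped the controls, and both day 5 libraries lay above all 4 others. The log2 fold change was 0.16 ± 0.22 on day 3 (edgeR adjusted p = 0.682) and 0.80 ± 0.22 on day 5 (edgeR adjusted p = 0.0438). The day 5 call was close to the threshold and was lost in 9 of 17 alternatives, among them the fits without control replicate 2 (0.164), without either day 3 library (0.0755 and 0.0716) and without either day 5 library (0.0585 and 0.215), with a rise in each.

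ULK1 was at 116.2 and 129.3 CPM in control cells, 79.91 and 90.7 on day 3 and 103.8 and 128.6 on day 5. Day 3 lay below both other groups, with a log2 difference from control of -0.53 ± 0.15 that missed the threshold (edgeR adjusted p = 0.0565). On day 3 ULK1 passed without a filter, at 5 CPM in 2 libraries, in DESeq2 and with a replicate block. Day 5 overlapped the controls (-0.08, edgeR adjusted p = 0.761). ATG13, the member with the highest control level per length, was at 128.6 and 118.2 CPM in control cells, 88.72 and 96.58 on day 3 and 81.84 and 103.8 on day 5. All 4 KO libraries lay below both controls, with differences of -0.41 ± 0.15 at both days (edgeR adjusted p = 0.107 and 0.101). ATG13 passed at both days with a replicate block (edgeR adjusted p = 0.0196 and 0.0177), and on day 5 also without a filter. ATG101 had the opposite sign to ATG13 on day 3 (0.50, edgeR adjusted p = 0.114), and passed on that day with a replicate block. Exons of other genes cover 19.2% of its exonic bases.

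The lipid kinase complex makes the phosphoinositide that recruits later factors; PIK3C3 is the kinase, PIK3R4 its regulatory subunit, BECN1 the scaffold, ATG14 and UVRAG alternative partners, and AMBRA1 an activator of BECN1. AMBRA1 fell on day 5, and the other 5 did not pass at either day. AMBRA1 (ENSG00000110497; chromosome 11, 46396414 to 46594125, minus strand) was at 36.17 and 34.85 CPM in control cells, 35.5 and 29.79 on day 3 and 23.83 and 23.6 on day 5. Day 5 lay below the 4 other libraries. The log2 fold change was -0.12 ± 0.16 on day 3 (edgeR adjusted p = 0.662) and -0.58 ± 0.16 on day 5 (edgeR adjusted p = 0.0459). The day 5 call was lost in 10 of 17 alternatives, with a fall in each, and in each of the 6 fits that left out a library (edgeR adjusted p from 0.0725 to 0.166).

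BECN1, the highest member of this complex in control cells per length, was at 42.91 and 46.02 CPM in control cells, 62.34 and 60.58 on day 3 and 58.07 and 57.19 on day 5. All KO libraries lay above both controls, but the differences of 0.47 ± 0.13 and 0.37 ± 0.13 missed the threshold (edgeR adjusted p = 0.0516 and 0.0884). On day 3 BECN1 passed in 5 alternatives: without a filter, in DESeq2, with the gene length trend removed (0.0385), with a replicate block (0.012) and with upper-quartile factors. The last of these gave 1 member higher and 1 lower in place of 0 and 1. On day 5 BECN1 passed with a replicate block. Exons of other genes, mostly CNTD1 on the opposite strand (12.4%), cover 17.1% of its exonic bases. PIK3C3 was at -0.39 and -0.35 on the log2 scale at the 2 days (edgeR adjusted p = 0.161 and 0.183). UVRAG, ATG14 and PIK3R4 lay between -0.40 and 0.315 with adjusted p of 0.136 or more in edgeR. BECN1 and its partner kinase thus had opposite signs, and neither passed.

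Membrane supply covers the lipid transfer proteins ATG2A and ATG2B, the scramblases ATG9A and VMP1, and the phosphoinositide readers WIPI1 and WIPI2. None of the 6 passed at either day. WIPI2, the highest of the 6 in control cells per length, was at 144.4 and 120.6 CPM in control cells, 120 and 106.3 on day 3 and 107.6 and 97.23 on day 5, with differences of -0.23 ± 0.14 and -0.37 ± 0.14 (edgeR adjusted p = 0.323 and 0.115). The lowest adjusted p were those of ATG2A (-0.51 on day 3 and -0.54 on day 5, edgeR adjusted p = 0.0801 and 0.0625), followed by WIPI1 on day 5 (0.86, edgeR adjusted p = 0.0832). The paralogues thus stood on opposite sides of the controls: WIPI1 was at 5.718 and 5.705 CPM in control cells and 8.489 and 12.24 on day 5, above both, while both day 5 libraries of WIPI2 lay below. Exons of other genes, mostly ARSG on the opposite strand (24.3%), cover 28.1% of WIPI1, and ATG9A shares 38.8% of its exonic bases with AC068946.2. ATG9A was at -0.51 on day 3 (edgeR adjusted p = 0.118). With a replicate block ATG2A and ATG9A passed on day 3 and ATG2A, WIPI1 and WIPI2 on day 5. ATG2A also passed at both days without a filter, and on day 5 in DESeq2. Summed over the 6 genes, FPKM was 47.19 and 41.53 in control cells, 36.64 and 33.44 on day 3 and 40.6 and 37.28 on day 5, with all KO libraries below both controls.

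Conjugation uses ATG7 as the activating enzyme, ATG3 and ATG10 as conjugating enzymes, and the ATG12, ATG5 and ATG16L1 assembly to place ATG8 on membrane, while the ATG4 proteases trim and release it. None of the 10 passed at either day in the reported fit, and log2 differences ran from -0.42 to 0.46. ATG3, the highest in control cells per length, was at 71.05 and 60.98 CPM in control cells, 78.09 and 77.67 on day 3 and 87.21 and 84.78 on day 5. All KO libraries lay above both controls, at 0.24 ± 0.13 and 0.38 ± 0.13 (edgeR adjusted p = 0.26 and 0.0857). ATG12 was at 41.05 and 39.55 CPM in control cells and 58.8 and 52 on day 5 (0.46, edgeR adjusted p = 0.0599). ATG7 and ATG16L1 had the other sign on day 5 (-0.42 and -0.37, edgeR adjusted p = 0.132 and 0.153). ATG7 shares 18.1% of its exonic bases with VGLL4. With a replicate block ATG4B passed on day 3, higher than control. On day 5 ATG3, ATG4B and ATG12 passed higher in that fit, and ATG7 lower. ATG12 also passed on day 5 at 5 CPM in 2 libraries. The summed FPKM of the 10 genes was 62.03 and 56.52 in control cells, 58.74 and 61.17 on day 3, within the range of the controls, and 68.2 and 64.71 on day 5, above both.

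The 4 receptors NBR1, OPTN, TAX1BP1 and CALCOCO2 tether ubiquitin-marked cargo to ATG8. None passed at either day. CALCOCO2, the highest in control cells per length, was at 122.6 and 104.5 CPM in control cells, 102.4 and 120.7 on day 3 and 101.2 and 116.7 on day 5, and the 3 groups overlapped (-0.03 ± 0.15 and -0.06 ± 0.15, edgeR adjusted p = 0.934 and 0.828). NBR1 was at 54.35 and 46.31 CPM in control cells and 65.37 and 72.93 on day 5 (0.46, edgeR adjusted p = 0.065). OPTN had the largest day 3 difference of any member, -0.90 ± 0.30, and did not pass (edgeR adjusted p = 0.1). It was at 23.83 and 37.25 CPM in control cells against 13.45 and 19.46 on day 3. Without a filter, in DESeq2 and with a replicate block it passed on day 3. The 3 groups overlapped for TAX1BP1. It was at 147.5 and 81.98 CPM in control cells, 122.3 and 93.56 on day 3 and 173.6 and 117.7 on day 5. Replicate 1 was the higher library in each group. On day 5 NBR1 and TAX1BP1 passed with a replicate block, both higher than control.

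Day 5 was also set against day 3 directly, a comparison without the controls. No member passed in the reported fit, so there the day 5 calls of RB1CC1, AMBRA1 and GABARAPL1 are not shown to differ from day 3. GABARAPL1, RB1CC1, ULK1 and OPTN passed with a replicate block, all higher on day 5. The differences were 0.67 ± 0.20 for GABARAPL1 (edgeR adjusted p = 0.218), 0.65 ± 0.22 for RB1CC1 (edgeR adjusted p = 0.254) and -0.46 ± 0.16 for AMBRA1 (edgeR adjusted p = 0.261). GABARAPL2 was at -0.05 ± 0.16 (edgeR adjusted p = 0.927). Both day 5 libraries lay above both day 3 libraries for 12 members and below for 7, where 25.5% and 23.8% of all genes did so. The median member difference was 0.11, against 0.02 over all genes. ULK1 and OPTN, both lower than control on day 3 without passing, were 0.45 and 0.74 higher on day 5 than on day 3 (edgeR adjusted p = 0.25 and 0.314).

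Genes that act beside these components were followed in 5 further lists with 75 names, of which 71 had a row and 69 were tested. VPS15, among those without a row, is another name of PIK3R4. On day 3, 8 of 69 passed, 6 higher and 2 lower (11.6%, where 11.7% of all genes passed), and on day 5, 10 passed, 8 higher and 2 lower (14.5%, the same as all genes). No gene of these lists passed between the days in the reported fit. In DESeq2 2 did, without a filter 4 did and with a replicate block 12 did. Before adjustment, 17 of 69 had an edgeR p under 0.05, where 2206 of 14601 genes did. By list, 18.8% of 16 receptor genes passed on day 3 and 25% on day 5. Of 18 nutrient-signal genes 16.7% and 22.2% passed, and of 10 transcription factor genes 10% at each day. Of 10 other core factors 10% and 0% passed, and of 15 fusion genes 0% and 6.67%.

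Among 16 further receptors and their regulators, 2 rose and 1 fell on day 3 and 4 rose on day 5. Of 6 receptors for turnover of the endoplasmic reticulum on this list, grouped after their values were seen, RETREG1 and CCPG1 rose at both days. SEC62, TEX264, RTN3 and CALCOCO1 lay between -0.59 and 0.43 and did not pass (edgeR adjusted p of 0.0842 or more). RETREG1 (FAM134B) was at 1.349 and 0.6712 CPM in control cells, 7.089 and 4.892 on day 3 and 17.26 and 13.27 on day 5, with log2 fold changes of 2.59 ± 0.41 and 3.94 ± 0.42 (edgeR adjusted p = 0.00927 and 0.002). Its day 3 adjusted p was 0.0519 without day 3 replicate 1. CCPG1 was at 10.54 and 9.684 CPM in control cells, 27.89 and 25.67 on day 3 and 42.96 and 38.07 on day 5, with 1.41 ± 0.17 and 2.003 ± 0.171 (edgeR adjusted p = 0.00354 and 0.000839). Exons of other genes, among them the read-through gene DNAAF4-CCPG1 on the same strand, cover 39.8% of its exonic bases, and how reads there were counted is not stated. In both genes the 3 groups did not overlap, with day 5 highest.

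SQSTM1 encodes p62, the receptor for ubiquitin-marked aggregates that is itself degraded by autophagy as a protein. It was at 166.9 and 122.8 CPM in control cells, 212.1 and 194.6 on day 3 and 268.4 and 298.1 on day 5. Every KO library lay above both controls, and the change passed on day 5 (0.97 ± 0.16, edgeR adjusted p = 0.00916, and 0.0512 without day 5 replicate 2) and not on day 3 (0.49, edgeR adjusted p = 0.088). Of its exonic bases 22.0% lie in exons of other genes, among them MRNIP on the opposite strand. TBK1, a kinase that phosphorylates receptors, was at 33.99 and 28.62 CPM in control cells and 48.9 and 53.37 on day 5 (0.71, edgeR adjusted p = 0.0256). NCOA4, the ferritin receptor, was at 327.3 and 329.6 CPM in control cells and 195.7 and 249.7 on day 3 (-0.56, edgeR adjusted p = 0.0379). On day 5 it was at 233.6 and 237.5 CPM and did not pass (-0.48, edgeR adjusted p = 0.0538). It passed there in 7 alternatives, DESeq2 among them. The TBK1 and NCOA4 calls were each lost when 1 library was left out, in 5 of 6 such fits for TBK1 (edgeR adjusted p of up to 0.123) and in 6 of 6 for NCOA4 (up to 0.305).

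Of 18 nutrient kinase genes and their inputs tested, 3 rose on day 3, and on day 5 3 rose and 1 fell. SESN2, a stress-induced restraint on mTORC1, was at 124.1 and 115.6 CPM in control cells, 261.9 and 284.9 on day 3 and 213.4 and 249.6 on day 5, and passed at both days (1.19 ± 0.13 and 0.95 ± 0.13, edgeR adjusted p = 0.0025 and 0.0045) and in every alternative. DDIT4 (REDD1), also a restraint on mTORC1, was at 231.5 and 332.4 CPM in control cells and 615.1 and 718 on day 3, where it passed (1.24 ± 0.24, edgeR adjusted p = 0.0205, and up to 0.0902 with a library left out), and at 414.7 and 612.3 on day 5, where it did not (0.86, edgeR adjusted p = 0.0508). The day 5 rise of DDIT4 passed in 6 alternatives, among them no filter, DESeq2, a replicate block and the length trend removed. With 1 library left out the day 5 value was 0.556 to 1.119. In DDIT4, 41.2% of exonic bases lie in exons of other genes, among them DDIT4-AS1. The AMPK subunit gene PRKAB2 was at 11.05 and 13.95 CPM in control cells, 22.21 and 28.36 on day 3 and 30.05 and 31.3 on day 5 (1.01 and 1.29, edgeR adjusted p = 0.0196 and 0.00711), and its day 3 call was lost without control replicate 1 or either day 3 library (up to 0.132). PRKAG1, another AMPK subunit, fell on day 5 (-0.55, edgeR adjusted p = 0.0306), and RHEB, the activator of mTORC1, rose (0.52, edgeR adjusted p = 0.0405). With 1 library left out, the PRKAG1 call was lost in 5 of 6 fits (edgeR adjusted p of up to 0.134) and the RHEB call in 6 of 6 (up to 0.205).

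The other 3 lists had at most 1 gene past the threshold at each day. Of 10 transcription factor genes DDIT3 (CHOP), a factor of the endoplasmic reticulum stress response, rose at both days. It was at 8.93 and 10.69 CPM in control cells, 28.72 and 32.1 on day 3 and 18.85 and 22.29 on day 5 (1.63 ± 0.20 and 1.06 ± 0.20, edgeR adjusted p = 0.00354 and 0.0127, the second 0.0649 without day 5 replicate 2). In DDIT3, 39.6% of exonic bases lie in exons of other genes, among them MARS. TFEB did not pass (0.45 and 0.07, edgeR adjusted p = 0.107 and 0.817), and MITF, E2F1 and FOXO4 did not either. With a replicate block TFEB and FOXO4 passed on day 3, and MITF and E2F1 on day 5. E2F1 on day 5 (-0.67, edgeR adjusted p = 0.0989) also passed without a filter and in DESeq2. Of 10 other core factors tested, ATG16L2, a relative of ATG16L1, fell on day 3 (-0.64, edgeR adjusted p = 0.0361), from 96.69 and 95.21 CPM to 60.21 and 62.83, and the call was lost without control replicate 1 (0.0726) or either day 3 library (0.195 and 0.164). RUBCNL, WDR45, ZFYVE1 and TMEM41B did not pass. Of 15 genes of fusion with the lysosome, the small GTPase gene RAB7A fell on day 5 (-0.44, edgeR adjusted p = 0.0399), from 318.4 and 318.9 CPM to 247.4 and 222.9, and that call was lost in all 6 fits without a library (0.0503 to 0.2). VPS18, VPS11, VAMP7 and VPS33A did not pass. Of these, VPS18 on day 5 (-0.55, edgeR adjusted p = 0.0551) passed in several alternatives, DESeq2 among them. VPS11 on day 3 (0.52, edgeR adjusted p = 0.0579) passed in 5 alternatives, DESeq2 among them.

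**Figure D5:**
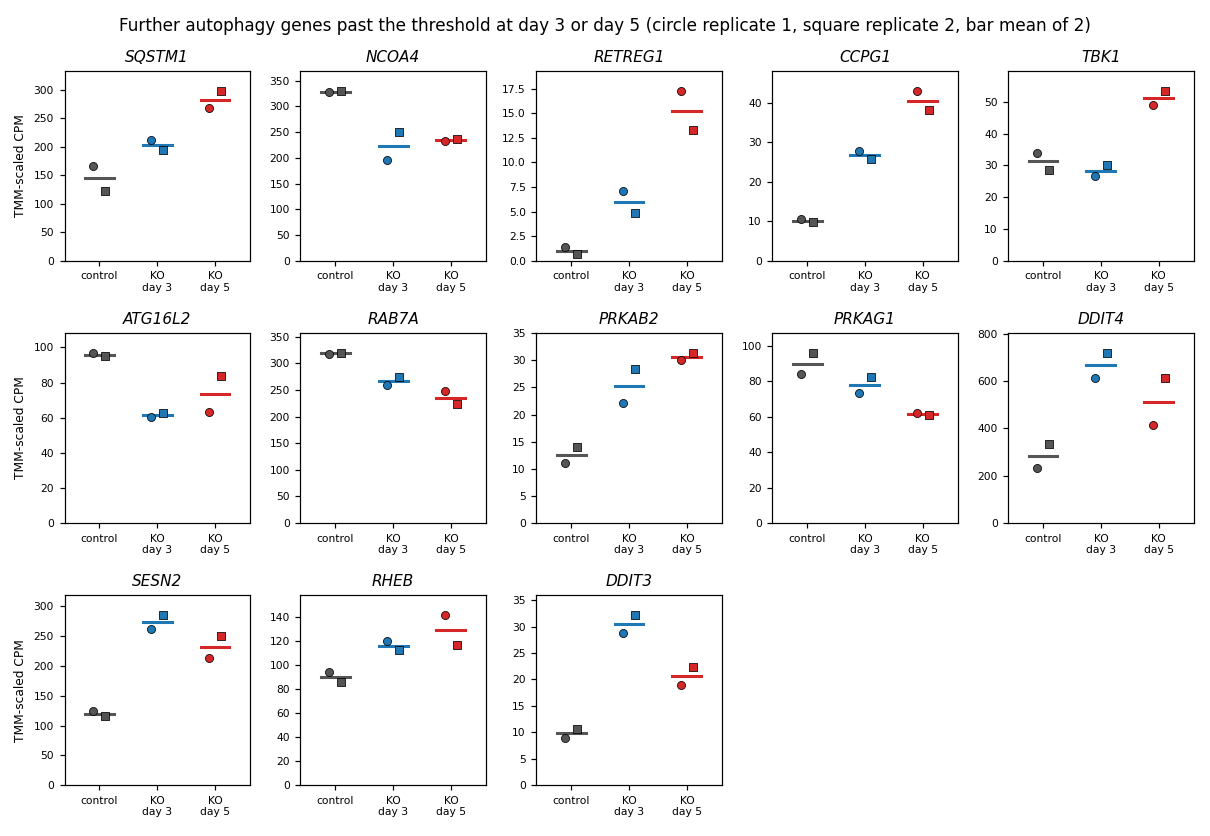
TMM-scaled CPM (vertical axis, from 0) of further autophagy genes past an adjusted p of 0.05 in at least 1 comparison, 1 point per library, with a bar at each group mean. RETREG1 lies at 1.349 CPM or less in control cells and at 13.27 or more on day 5, and SESN2 is at 213.4 or more in every KO library against 124.1 or less in control cells.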

How the data were processed

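The authors deposited a table of genes by libraries with read counts and FPKM values, named so in the file headers. The submitters' processing notes name GRCh38, HISAT2, HTSeq 0.11.2 and DESeq2 1.26.0 without their roles. How shared reads were counted is not stated there. The kit in the labels' protocols (NEBNext Ultra) is not stated to keep strand. All 24878 gene identifiers are in GENCODE release 29, and for 99.7% of genes the length behind the deposited FPKM values matched its summed exons within 0.5 bases.

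Counts were fitted with edgeR 4.0.16 (R 4.3.3): filterByExpr (minimum count 10, minimum total 15), TMM factors (0.962 to 1.04), 1 robust quasi-likelihood model of the 3 groups without a block (3 residual degrees of freedom), Benjamini-Hochberg adjustment over 14601 genes. Overlap was taken from exons on either strand. Tested on simulated data, 2-fold changes were recovered in 28.3% of 99 genes for day 3, 41.5% of 106 for day 5 and 30.4% of 92 between the days, and 4-fold changes in 71.6% of 95, 80.7% of 88 and 79% of 100. No pair of libraries was a repeat deposit (chi-square per degree of freedom 17.4 to 37.7).

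Alternatives were other scaling factors (upper-quartile, relative log expression), other filters (none, or at least 5 CPM in 2 libraries), DESeq2 1.42.0, only the libraries compared, a replicate block, leaving out each library, and removing a gene length trend. Deposited FPKM values were tested with limma 3.58.1 after adding a pseudocount of 1 or 0.1 and taking log2, keeping genes with a mean of 0.5 or more, and with 1 also for all genes.

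Members and lists were chosen with earlier results of these data known. Values per library are given for members past the threshold, the highest member of each role by control FPKM, and CAMK2D. Up to 5 genes of each further list with the lowest adjusted p are named. Values of other members were added after they were seen. Some markers of other cell types are not reported here.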

Additional observations from a re-analysis of the deposited data

How the results depend on the processing

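The counts of members past the threshold depended on the fit. At day 3 (1 in the reported fit) they were 2 with upper-quartile factors, 2 at 5 CPM in 2 libraries, 2 with the length trend removed, 4 in DESeq2, 5 without a filter and 0 in limma without a filter. Leaving out 1 library gave 0 to 1. At day 5 (4) they were 6 without a filter, 5 in DESeq2, 5 at 5 CPM in 2 libraries, 2 with only the 4 libraries compared, 2 in limma with either pseudocount, 1 in limma without a filter and 0 to 5 with 1 library left out. Between the days (0) the unfiltered fit gave 1, OPTN.

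The replicate numbers, and the letters of the library titles, are shared by the groups, but the labels do not say what they mark, and each comparison has 2 of them. Differences between replicates 1 and 2 correlated across genes between groups, with r of 0.303 to 0.355 over 14601 genes. With a replicate block, members past the threshold were 9 at day 3, 16 at day 5 and 4 between the days (GABARAPL1, RB1CC1, ULK1 and OPTN, all higher at day 5; edgeR adjusted p = 0.0308 for GABARAPL1 and 0.0449 for RB1CC1). All genes went from 1710, 2117 and 4 to 4064, 4418 and 1117 of 14601, and further genes from 8, 10 and 0 to 23, 23 and 12. The members' shares against those of all genes depend on this choice. At day 5 the members' share was below that of all genes without the block and above it with the block.

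Over all genes the unfiltered fit passed 2925, 3234 and 599, and DESeq2 passed 306 between the days. Limma without a filter passed 254 and 605 against control. Leaving out 1 library gave 282 to 1906 at day 3, 723 to 1874 at day 5 and 1 to 15 between the days, and the 4 libraries compared gave 1315 at day 5. Further genes were 14, 16 and 4 without a filter, 2 and 5 against control in limma without one, and 3 to 9 at day 3 and 4 to 11 at day 5 with 1 library left out.

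Of 1258 values for named genes under an alternative, 1096 kept direction and side of the threshold, 88 lost a call, 55 gained one and 19 turned sign. None of the 19 belonged to a change past the threshold. At day 3, leaving out 1 library gave -0.019 to 0.366 for RB1CC1, -0.243 to 0.017 for AMBRA1, -0.131 to 0.098 for CALCOCO2 (0.018 with the length trend removed), -0.084 to 0.018 for VAMP7 and -0.592 to 0.068 for CAMK2D. At day 5 it gave -0.199 to 0.052 for CALCOCO2, -0.756 to 0.141 for ZFYVE1, -0.021 to 0.165 for VPS33A, -0.076 to 0.334 for FOXO4 and -0.053 to 0.164 for TFEB. Between the days it gave -0.2 to 0.039 for GABARAPL2, for which the 3 limma fits gave 0.032, 0.036 and 0.032. The cause of these changes was not tested. In the simulated data at most 41.5% of 2-fold changes were recovered, so over all genes tested smaller changes would often be missed. The changed genes were drawn from all 14601, of which 10190 had a mean of 5 CPM or more, as every tested member did. Recovery for the members alone was not measured, and no difference shared by replicate number was simulated.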
